A study of Mus musculus with 18 samples.

Results

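The mitosis and chromosome segregation genes described here are 57 genes that carry a cell through mitosis, chosen as a list of gene symbols by function, and all 57 were matched by symbol among the 35275 genes of the read-count table. Gene expression was measured by RNA-seq in 6 mouse cell lines grown from separate malignant peripheral nerve sheath tumors (MPNSTs), sarcomas of the nerve sheath. The 3 Nf1/p53 dKO lines have the genotype Nf1-/-;p53-/- and the 3 Nf1/Cdkn2a dKO lines Nf1-/-;Cdkn2a-/-, where dKO is double knockout, p53 is encoded by Trp53 in the mouse and Cdkn2a encodes p16 and p19. Each line was plated as 3 cultures, giving 18 untreated libraries. The tumors arose in wild-type 129 Sv/Jae mice after injection of an adenovirus with CMV-driven Cas9 and guide RNAs into the sciatic nerve, so the targeted cell type was set by the injection site and not by a Cre driver. All 6 lines are labelled Nf1-/-, no line with intact tumor suppressors was analysed here, and the age of the mice is not given in the sources used here. The lines were passaged at least 20 times, and a line is 1 tumor, so the genotype comparison rests on 3 lines against 3.

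In dividing cells the genes of mitosis are transcribed late in the cell cycle, when cyclin B and CDK1 drive entry into mitosis, condensin compacts the chromosomes, kinetochores attach them to the spindle, and the spindle checkpoint holds back the anaphase-promoting complex until every chromosome is attached. Separase then cuts cohesin and the sister chromatids part. Many of these genes carry in their promoters a CHR element (cell cycle genes homology region), bound by the MuvB complex, often beside CCAAT boxes bound by NF-Y. MuvB represses transcription as part of the DREAM complex in resting cells, and activates it with B-MYB and FOXM1 in cycling cells.

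Library totals were 19560535 to 28312207 counts (median 23149777), and levels are given in CPM (counts scaled to a common library size, with TMM factors, after summing over the cultures of a line). Trp53 stood at 58.6 to 94.1 CPM in the Nf1/p53 lines and at 185 to 247 CPM in the Nf1/Cdkn2a lines. Cdkn2a overlapped between genotypes, at 363, 279 and 42.9 CPM in Nf1/p53 lines 1 to 3 and at 169, 391 and 285 CPM in Nf1/Cdkn2a lines 1 to 3, so its counts did not separate the labelled genotypes. Nf1, targeted in every line, was at 69.95, 33.4 and 27.7 CPM in Nf1/p53 lines 1 to 3 and at 12.7, 38.2 and 16.2 CPM in Nf1/Cdkn2a lines 1 to 3. A count per gene does not show a small Cas9 edit. The 8 mesenchymal markers, the cell type on the labels, summed to 9883 to 22933 CPM, the 8 Schwann lineage markers to 23.5 to 122 CPM, the 8 leukocyte markers to at most 8.39 CPM with Adgre1 and Cd3e at no more than 3 counts in any line, and the 6 endothelial markers to at most 2.5 CPM. The 5 epithelial markers summed to 57.6, 741 and 3.01 CPM in Nf1/p53 lines 1 to 3 and to 611, 191 and 8.85 CPM in Nf1/Cdkn2a lines 1 to 3. The sum of the 6 skeletal muscle lineage markers stood apart in Nf1/p53 line 3, at 416 CPM, of which Myod1 gave 204 CPM. This sum was 85.7 and 53.7 CPM in Nf1/p53 lines 1 and 2 and 0.203 to 0.802 CPM in the Nf1/Cdkn2a lines. Myf5 did not stand apart in line 3, at 28.02, 24.17 and 27.65 CPM in Nf1/p53 lines 1 to 3. Pax7 was at no more than 3 counts in any line.

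The promoters show what the mitosis genes share in sequence. RefSeq promoter windows of 300 bases (250 before and 50 after the transcription start, GRCm38.p6) were matched by symbol for 48 of the 57 genes, in 53 windows. Both strands were searched for the CHR letters TTTGAA and TTCGAA. At least 1 match lay in 38 of the 53 windows (71.7%), belonging to 34 genes, against 19.2% of all 32851 windows. CCAAT, also searched on both strands, lay in 73.6% of the windows of mitosis genes and in 37.4% of all windows, and both motifs together in 64.2% against 7.53%. The E2F letters TTTGGCGC and TTTCCCGC lay in 5.66% against 1.57%. Between 100 bases before and 50 bases after the start, 66.0% of the windows of mitosis genes held a CHR match against 8.59% of all windows. The 120 bases before the start are shown for 5 genes whose levels are described here, on the strand of the gene and with CHR letters in capitals (TTCAAA is TTTGAA on the other strand). Cdc20 (chr4:118437344-118437463, minus strand), Espl1 (chr15:102296173-102296292, plus strand) and Kif11 (chr19:37376262-37376381, plus strand) each show 1 CHR match near the start, Mki67 (chr7:135716380-135716499, minus strand) shows 2 farther away, and Plk4 (chr3:40799831-40799950, plus strand) shows none.
Cdc20: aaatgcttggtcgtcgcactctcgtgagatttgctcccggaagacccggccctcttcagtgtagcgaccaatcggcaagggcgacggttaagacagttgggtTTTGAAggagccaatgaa
Espl1: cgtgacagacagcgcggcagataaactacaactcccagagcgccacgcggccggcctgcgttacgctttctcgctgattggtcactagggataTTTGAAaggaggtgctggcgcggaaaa
Kif11: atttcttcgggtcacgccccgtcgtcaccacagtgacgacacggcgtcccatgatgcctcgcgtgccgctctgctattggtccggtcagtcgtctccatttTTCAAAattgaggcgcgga
Mki67: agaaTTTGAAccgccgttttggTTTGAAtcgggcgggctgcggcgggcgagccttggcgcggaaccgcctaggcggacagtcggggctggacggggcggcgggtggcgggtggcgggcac
Plk4: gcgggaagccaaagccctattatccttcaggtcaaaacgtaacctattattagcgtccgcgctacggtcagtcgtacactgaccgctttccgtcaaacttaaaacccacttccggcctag
The CHR match began 18 bases before the start in Cdc20, 27 in Espl1 and 19 in Kif11, and in Mki67 the matches began 116 and 98 bases before it. Plk4 had neither CHR letters nor CCAAT in its whole window, and a missing match says only that these letters are not there.

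**Figure D1:**
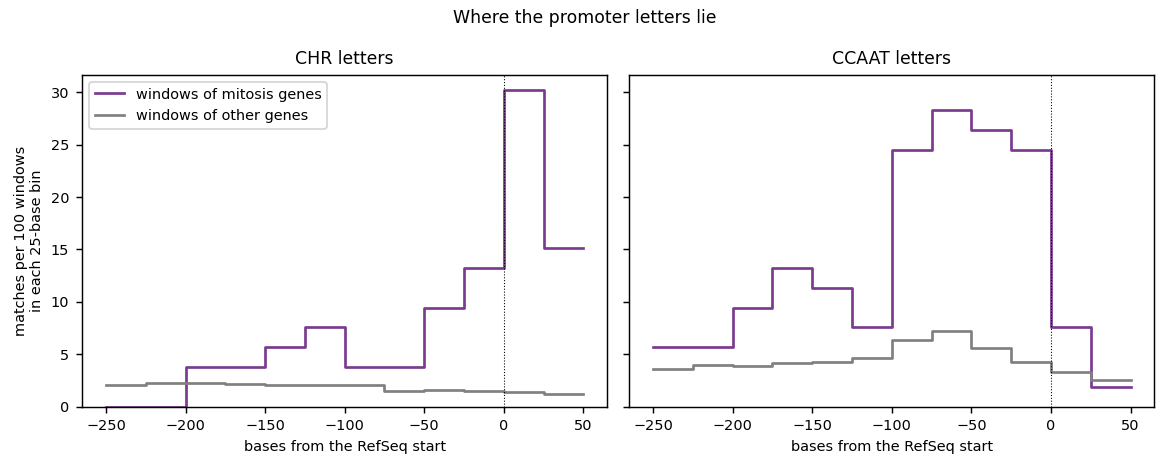
Matches per 100 promoter windows in 25-base bins, by the distance of the match's centre from the RefSeq transcription start, for CHR letters (left) and CCAAT (right). Windows of mitosis genes (purple, 53 windows) reached 30.2 CHR matches per 100 windows in the first bin after the start, where windows of other genes (grey) held 1.41, and 28.3 CCAAT matches per 100 windows in the bin from 75 to 50 bases before the start, where other windows held 7.24.

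The first comparison asked whether the mitosis genes differed between the genotypes. Most stood lower in the Nf1/Cdkn2a lines, but none passed the test. The log2 fold change (Nf1/Cdkn2a against Nf1/p53, so that negative values are lower in Nf1/Cdkn2a) was negative for 54 of the 57 genes, or 94.7%, counting Incenp at -0.00, against 51.8% of all genes tested, and its median was -0.41 against -0.02. The range ran from -1.15 for Espl1 to 0.76 for Psrc1. With edgeR's quasi-likelihood test on the 6 lines and Benjamini-Hochberg adjustment over 15207 genes, 0 of the 57 genes were called at an adjusted p under 0.05, where 1.8% of all genes were. The lowest adjusted p was 0.0522, for Cks1b. At an unadjusted p under 0.05, 16 genes (28.1%) were lower in Nf1/Cdkn2a and 0 higher, against 12.5% of all genes lower. In 18 genes (31.6%) every Nf1/Cdkn2a line stood below every Nf1/p53 line, against 16.6% of all genes, and in 0 genes was the order the opposite. In bulk RNA, fewer cells in mitosis and less of these RNAs per cell cannot be told apart.

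The count of calls depended on the test, also on the 6 line sums, and on what was taken as the replicate. On those sums DESeq2 called 9 mitosis genes (against 14.4% of all genes), where edgeR called 0. A limma-voom fit to all 18 libraries, in which the line was a random effect, called 18 (against 16.6%). That fit drew on the cultures too, so its 18 calls cannot be read as resting on the 6 lines alone. With the 18 cultures taken as separate samples, edgeR called 36 (against 46.5%) and DESeq2 37 (against 48.9%). All of these calls of mitosis genes were lower in Nf1/Cdkn2a, whereas the shares of all genes count calls in either direction. The share of all genes called lower alone is not given here for these fits. The cultures of a line come from the same tumor.

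The difference between genotypes was carried largely by Nf1/p53 line 3, and to a lesser degree by Nf1/Cdkn2a line 2. Nf1/p53 line 3 had the highest level of 50 of the 57 genes (87.7%), where it had the highest level of 25.9% of all genes. Nf1/Cdkn2a line 2 had the lowest level of 47 of them (82.5%), against 17.9% of all genes. Relative to each gene's mean over the 6 lines on the log2 scale, the median level of the mitosis genes was -0.02, 0.01 and 0.60 in Nf1/p53 lines 1 to 3 and -0.05, -0.47 and -0.10 in Nf1/Cdkn2a lines 1 to 3. The other 4 lines thus lay within a narrow range across the genotypes, with Nf1/p53 line 3 above and Nf1/Cdkn2a line 2 below.

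**Figure D2:**
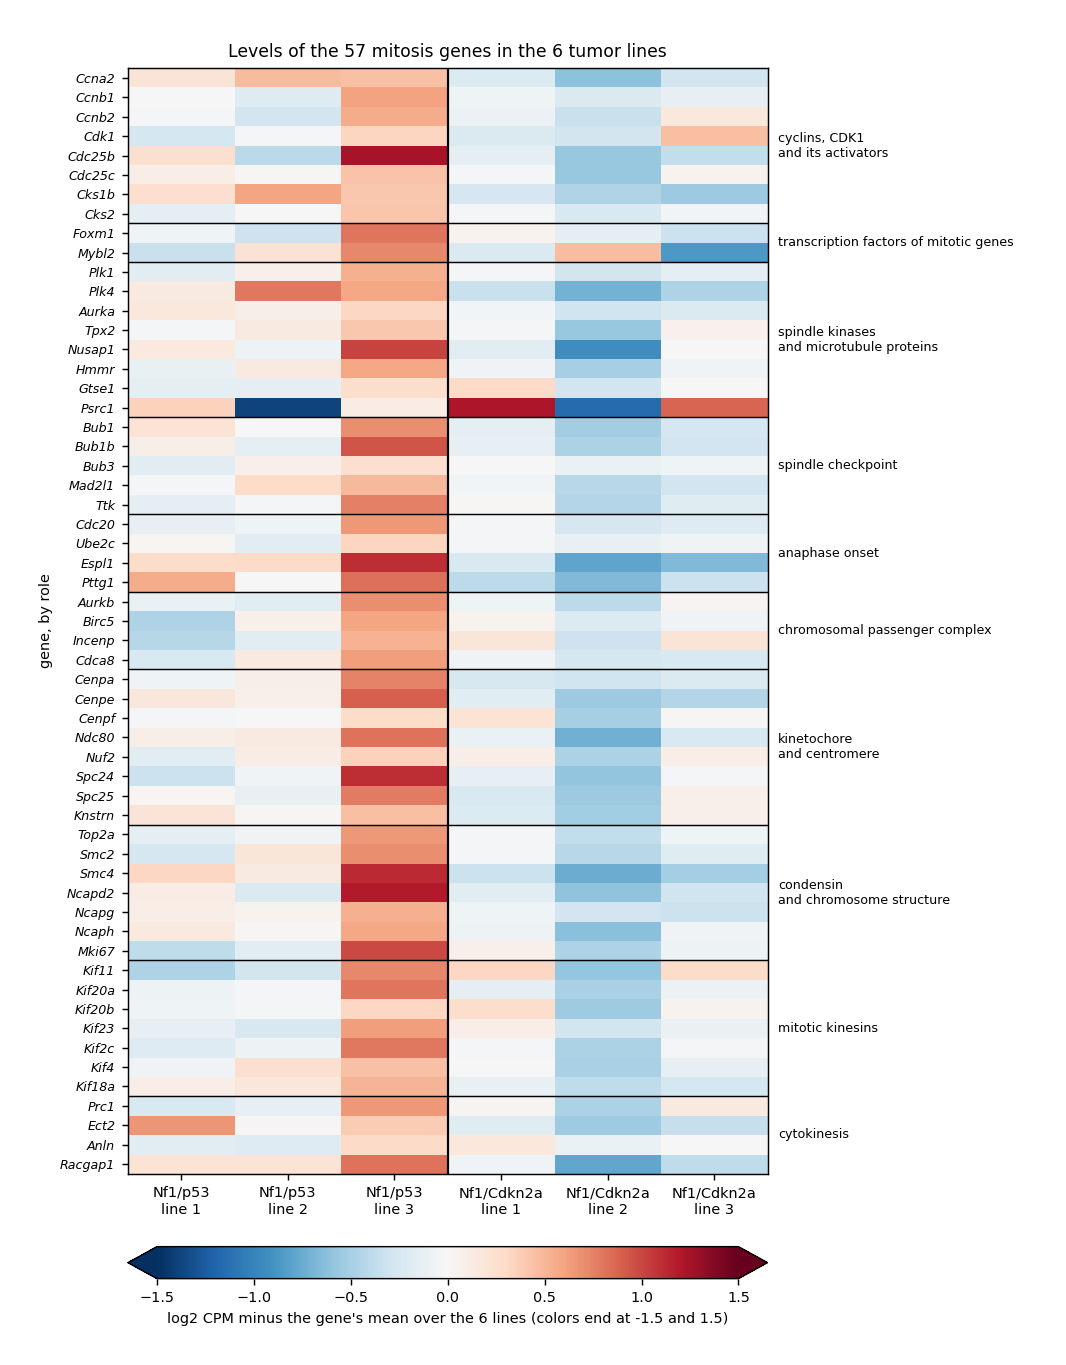
Each row is 1 of the 57 mitosis genes, grouped by role, and each column 1 of the 6 lines; colors give the log2 CPM minus the gene's mean over the 6 lines, red above and blue below. The column of Nf1/p53 line 3 is the highest for 50 genes and that of Nf1/Cdkn2a line 2 the lowest for 47.

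Each line was then left out in turn. Without Nf1/p53 line 3 the median log2 fold change went from -0.41 to -0.17, 42 genes remained lower in Nf1/Cdkn2a, and 10 had an unadjusted p under 0.05 and a lower level, in place of 16. Without Nf1/Cdkn2a line 2 the median was -0.31, 49 genes were lower and 7 passed the unadjusted threshold. Without Nf1/Cdkn2a line 3 the median was -0.45, and 9 passed it. Leaving out the remaining lines gave medians of -0.55 (Nf1/p53 line 1), -0.48 (Nf1/p53 line 2) and -0.46 (Nf1/Cdkn2a line 1). In none of these 6 fits was a mitosis gene called. With Nf1/p53 line 3 and Nf1/Cdkn2a line 2 both left out, a setting chosen after seeing the data, the median was -0.05, 34 genes were lower and 6 passed the unadjusted threshold. Fewer lines weaken the test for every gene, and the shares of all genes passing that threshold in these fits are not given here. The smaller counts passing it can thus not be read as particular to the mitosis genes.

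Gene by gene, Nf1/p53 line 3 was the line whose removal moved the fold change most in 43 of the 57 genes (75.4%), against 28.3% of the 15179 genes fitted in every case. Nf1/Cdkn2a line 2 was that line in 9 genes (15.8%), not far from its 11.7% of all genes. Nf1/p53 line 2 and Nf1/Cdkn2a line 3 were it in 2 each (all genes 16.5% and 18.3%). Nf1/p53 line 1 was it in 1 (all genes 17.4%) and Nf1/Cdkn2a line 1 in 0 (all genes 7.78%). Of the 54 genes lower in Nf1/Cdkn2a, 12 (22.2%) turned higher without Nf1/p53 line 3, against 12.4% of all genes that were lower. Without Nf1/Cdkn2a line 2, 5 (9.26%) turned higher, against 7.55%. Without that line 34 genes kept under 50% of their log2 fold change, and 5 kept at least 80%: Ccna2, Cks1b, Plk4, Aurka and Ect2. In 16 genes the log2 fold change stayed below -0.3 whichever single line was left out. These were Ccna2, Cks1b, Plk4, Aurka, Nusap1, Bub1, Mad2l1, Espl1, Pttg1, Cenpe, Ndc80, Smc4, Ncaph, Kif18a, Ect2 and Racgap1. For the classes by share kept and by the -0.3 cutoff, shares of all genes are not given here.

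**Figure D3:**
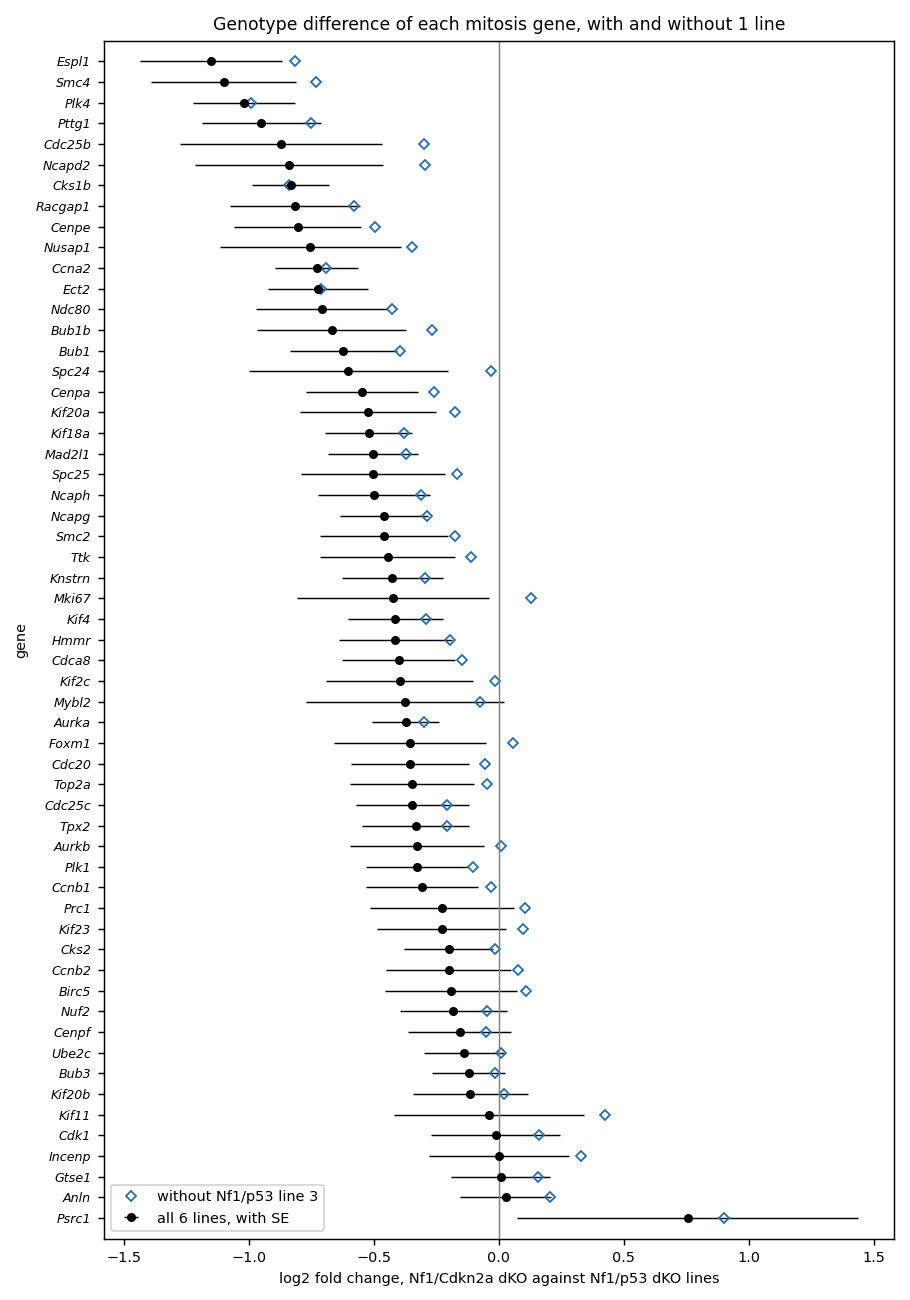
Log2 fold change of each mitosis gene, Nf1/Cdkn2a against Nf1/p53 lines, from all 6 lines with its standard error (black) and without Nf1/p53 line 3 (open blue). Plk4, Cks1b, Ccna2 and Ect2 hardly moved, whereas Cdc25b went from -0.87 to -0.30, Mki67 from -0.42 to 0.13 and Kif11 from -0.04 to 0.42.

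Among the cyclins, CDK1 and its activators, all 8 genes had a negative fold change, 2 of them with an unadjusted p under 0.05 (Ccna2 and Cks1b), and the median was -0.33, or -0.12 without Nf1/p53 line 3. Cks1b (ENSMUSG00000028044, chr3:89415472-89418383, GRCm38), a small subunit that binds cyclin-dependent kinases, stood at 194, 246 and 215 CPM in Nf1/p53 lines 1 to 3 and 136, 119 and 112 CPM in Nf1/Cdkn2a lines 1 to 3. The groups did not overlap, with a log2 fold change of -0.83 (SE 0.15, adjusted p = 0.0522) and -0.84 without Nf1/p53 line 3. Ccna2 (ENSMUSG00000027715, chr3:36564865-36572150), the cyclin A of somatic cells, stood at 247, 302 and 293 CPM in Nf1/p53 lines 1 to 3 and 189, 141 and 179 CPM in Nf1/Cdkn2a lines 1 to 3. Here too no line overlapped, Nf1/p53 line 2 was the highest rather than line 3, and the test gave a log2 fold change of -0.73 (SE 0.17, adjusted p = 0.0779). Of the exons of Ccna2, 12.5% overlap Exosc9 on the opposite strand. Cdc25b, a phosphatase that activates CDK1, had the lowest fold change of the group and stood at 72.6, 46.6 and 145 CPM in Nf1/p53 lines 1 to 3 and 55.5, 41.6 and 47.6 CPM in Nf1/Cdkn2a lines 1 to 3. Its Nf1/p53 line 2 lay below Nf1/Cdkn2a lines 1 and 3, with a log2 fold change of -0.87 (SE 0.40, adjusted p = 0.265) that was -0.30 without Nf1/p53 line 3. Cdk1, the kinase of mitotic entry, was at 157, 187 and 237 CPM in Nf1/p53 lines 1 to 3 and 162, 156 and 259 CPM in Nf1/Cdkn2a lines 1 to 3. Its highest line was Nf1/Cdkn2a line 3, and the groups overlapped with a log2 fold change of -0.01 (SE 0.26, adjusted p = 0.982). The mitotic cyclins Ccnb1 and Ccnb2, the phosphatase Cdc25c and Cks2, the paralog of Cks1b, had log2 fold changes of -0.31, -0.20, -0.35 and -0.20.

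Both transcription factors of mitotic genes overlapped between genotypes. Foxm1, a forkhead factor that activates mitotic genes, stood at 129.9, 109 and 237 CPM in Nf1/p53 lines 1 to 3 and 140.5, 123 and 109 CPM in Nf1/Cdkn2a lines 1 to 3. Only Nf1/p53 line 3 stood apart, and a log2 fold change of -0.36 (SE 0.30, adjusted p = 0.527) became 0.06 without it. Mybl2, which encodes B-MYB, was at 35.8, 52.3 and 74.3 CPM in Nf1/p53 lines 1 to 3 and 38.7, 61.9 and 24.7 CPM in Nf1/Cdkn2a lines 1 to 3. Among the Nf1/Cdkn2a lines it was highest in line 2, where 47 of the mitosis genes were lowest, and lowest in line 3, giving a log2 fold change of -0.37 (SE 0.40, adjusted p = 0.611).

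Of the 8 spindle kinases and microtubule proteins, 6 were lower and 2 higher, and the group median was -0.35. Plk4 (ENSMUSG00000025758, chr3:40800019-40816883), the kinase that starts centriole duplication, stood at 76.3, 119.6 and 103 CPM in Nf1/p53 lines 1 to 3 and 55.1, 42.3 and 50.2 CPM in Nf1/Cdkn2a lines 1 to 3. Every Nf1/Cdkn2a line lay below every Nf1/p53 line, with a log2 fold change of -1.02 (SE 0.20, adjusted p = 0.0597), and -0.99 without Nf1/p53 line 3. Aurka, the spindle pole kinase Aurora A, did not overlap either and had a log2 fold change of -0.37 (unadjusted p = 0.0296 and adjusted p = 0.175 in edgeR). Plk1, Tpx2 (an activator of Aurora A), Hmmr and Nusap1 (microtubule-binding proteins) had values of -0.33, -0.33, -0.41 and -0.75, with overlap. Gtse1, which binds microtubules and p53, was close to 0 at 0.01. Psrc1, a microtubule-binding protein of the spindle, stood at 8.84, 2.65 and 7.49 CPM in Nf1/p53 lines 1 to 3 and 16.2, 3.13 and 12.8 CPM in Nf1/Cdkn2a lines 1 to 3. It was low in Nf1/p53 line 2 and Nf1/Cdkn2a line 2 and higher in the other 4 lines, with a log2 fold change of 0.76 (SE 0.68, adjusted p = 0.552).

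All 5 genes of the spindle checkpoint were lower, with a median of -0.50. Bub1b, which encodes the checkpoint protein BUBR1, had the lowest fold change and stood at 129.8, 111 and 234 CPM in Nf1/p53 lines 1 to 3 and 112, 87.5 and 99.9 CPM in Nf1/Cdkn2a lines 1 to 3. Nf1/p53 line 2 lay just below Nf1/Cdkn2a line 1, with a log2 fold change of -0.67 (SE 0.30, adjusted p = 0.246) that was -0.27 without Nf1/p53 line 3. Bub1, the checkpoint kinase, and Mad2l1, the MAD2 protein that binds CDC20, did not overlap between genotypes, at -0.62 and -0.50 (unadjusted p = 0.0241 and 0.0283, adjusted p = 0.159 and 0.171 in edgeR). Ttk, the kinase MPS1, was at -0.44. Bub3, the partner of BUB1 and BUBR1, had a log2 fold change of -0.12 (SE 0.15, adjusted p = 0.663) and stood at 148, 174 and 196 CPM in Nf1/p53 lines 1 to 3 and 165, 153 and 157 CPM in Nf1/Cdkn2a lines 1 to 3.

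The 4 genes of anaphase onset had the lowest median of the 10 role groups, at -0.65, and at -0.40 without Nf1/p53 line 3. Espl1 (ENSMUSG00000058290, chr15:102296266-102324357), which encodes separase, stood at 121, 122 and 215 CPM in Nf1/p53 lines 1 to 3 and 85.2, 57.7 and 63.1 CPM in Nf1/Cdkn2a lines 1 to 3. Its 3 Nf1/Cdkn2a lines lay below all Nf1/p53 lines, with a log2 fold change of -1.15 (SE 0.28, adjusted p = 0.0874), and -0.82 without Nf1/p53 line 3. Pttg1 (ENSMUSG00000020415, chr11:43420250-43426251), which encodes securin, the inhibitor of separase, stood at 56.4, 38.3 and 67.8 CPM in Nf1/p53 lines 1 to 3 and 29.2, 24.4 and 30.6 CPM in Nf1/Cdkn2a lines 1 to 3. It had a log2 fold change of -0.95 (SE 0.24, adjusted p = 0.0894), again without overlap, and -0.75 without that line. Cdc20 and Ube2c, the activator and an E2 enzyme of the anaphase-promoting complex, were at -0.35 and -0.14, both with overlap. Ube2c stood at 204, 178 and 251 CPM in Nf1/p53 lines 1 to 3 and 198, 185 and 193 CPM in Nf1/Cdkn2a lines 1 to 3, and its log2 fold change had an adjusted p of 0.646 in edgeR and was 0.01 without Nf1/p53 line 3.

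The 4 members of the chromosomal passenger complex all overlapped between genotypes, with a median of -0.26 that was 0.06 without Nf1/p53 line 3. Cdca8, the borealin subunit, stood at 69.5, 90.3 and 125 CPM in Nf1/p53 lines 1 to 3 and 78.7, 67.8 and 69.5 CPM in Nf1/Cdkn2a lines 1 to 3, with a log2 fold change of -0.40 (SE 0.23, adjusted p = 0.346). Incenp, the scaffold, stood at 97.6, 117 and 189 CPM in Nf1/p53 lines 1 to 3 and 148, 106 and 149 CPM in Nf1/Cdkn2a lines 1 to 3. Nf1/p53 line 3 was the highest and Nf1/p53 line 1 the lowest of all, with a log2 fold change of -0.00 (SE 0.28, adjusted p = 1) that was above 0 with DESeq2's size factors (0.0041). Aurkb, the kinase, and Birc5, or survivin, were at -0.33 and -0.19.

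All 8 kinetochore and centromere genes were lower, with a median of -0.52, and 3 passed an unadjusted p under 0.05. Cenpe, a kinetochore motor, stood at 160.1, 150.1 and 265 CPM in Nf1/p53 lines 1 to 3 and 127, 97.0 and 105 CPM in Nf1/Cdkn2a lines 1 to 3. The lines did not overlap, with a log2 fold change of -0.80 (SE 0.25, adjusted p = 0.134). Ndc80, a microtubule-binding subunit of the outer kinetochore, and Cenpa, the histone variant of centromeres, also did not overlap, at -0.71 and -0.55 (adjusted p = 0.184 and 0.218 in edgeR). The other NDC80 subunits Spc24, Spc25 and Nuf2 were at -0.60, -0.50 and -0.18, and Spc24 was -0.03 without Nf1/p53 line 3. Knstrn was at -0.43. Cenpf, a large protein of the outer kinetochore, had the fold change nearest to 0 in the group and stood at 96.6, 98.3 and 118 CPM in Nf1/p53 lines 1 to 3 and 113, 69.4 and 98.8 CPM in Nf1/Cdkn2a lines 1 to 3, with a log2 fold change of -0.16 (SE 0.21, adjusted p = 0.688).

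The 7 genes of condensin and chromosome structure were all lower, with a median of -0.46. Smc4 (ENSMUSG00000034349, chr3:69004738-69034623), an ATPase of condensin, stood at 361, 320.0 and 634 CPM in Nf1/p53 lines 1 to 3 and 234, 174 and 205 CPM in Nf1/Cdkn2a lines 1 to 3. All Nf1/p53 lines lay above all Nf1/Cdkn2a lines, with a log2 fold change of -1.10 (SE 0.29, adjusted p = 0.0962), and -0.73 without Nf1/p53 line 3. The condensin I subunits Ncapg and Ncaph did not overlap, at -0.46 and -0.50, while Ncapd2 went from -0.84 to -0.29 without Nf1/p53 line 3 and the other ATPase, Smc2, was at -0.46. Top2a, the topoisomerase that untangles sister chromatids, stood at 493, 522 and 854 CPM in Nf1/p53 lines 1 to 3 and 530.4, 419.8 and 521 CPM in Nf1/Cdkn2a lines 1 to 3, with a log2 fold change of -0.35 (SE 0.25, adjusted p = 0.453). Mki67, the proliferation marker Ki-67, a coat protein of mitotic chromosomes, stood at 302, 353 and 783 CPM in Nf1/p53 lines 1 to 3 and 415, 284 and 373 CPM in Nf1/Cdkn2a lines 1 to 3. Nf1/p53 line 3 stood far above every other line, and the log2 fold change of -0.42 was 0.13 without it.

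All 7 mitotic kinesins were lower with a median of -0.40, which was -0.01 without Nf1/p53 line 3. Kif20a, a motor of the spindle midzone, had the lowest fold change and stood at 123, 129 and 227 CPM in Nf1/p53 lines 1 to 3 and 117, 93.2 and 123 CPM in Nf1/Cdkn2a lines 1 to 3. The groups were barely apart, with Nf1/p53 line 1 next to Nf1/Cdkn2a line 3 and a log2 fold change of -0.52 (SE 0.27, adjusted p = 0.306), and 29.3% of its exons overlap Cdc23 on the opposite strand. Kif11, the motor that separates the spindle poles, was at 89.1, 102 and 202 CPM in Nf1/p53 lines 1 to 3 and 152, 82.0 and 148 CPM in Nf1/Cdkn2a lines 1 to 3. Nf1/Cdkn2a lines 1 and 3 stood above Nf1/p53 lines 1 and 2, and a log2 fold change of -0.04 (SE 0.38, adjusted p = 0.965) became 0.42 without Nf1/p53 line 3. Kif18a, which dampens chromosome movements, did not overlap, at -0.52 (unadjusted p = 0.0212, adjusted p = 0.151 in edgeR). Kif4, Kif2c, Kif23 and Kif20b were at -0.41, -0.40, -0.23 and -0.11.

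Of the 4 cytokinesis genes, 3 were lower, with a median of -0.48. Racgap1, a subunit of centralspindlin, had the lowest fold change and stood at 269, 270.5 and 412 CPM in Nf1/p53 lines 1 to 3 and 225, 136 and 179.5 CPM in Nf1/Cdkn2a lines 1 to 3. Ect2 (ENSMUSG00000027699, chr3:27097222-27153878), the exchange factor that activates RhoA at the cleavage site, stood at 237, 152 and 197 CPM in Nf1/p53 lines 1 to 3 and 133, 104 and 118 CPM in Nf1/Cdkn2a lines 1 to 3. Both were free of overlap, with a log2 fold change of -0.81 (SE 0.26, adjusted p = 0.136) for Racgap1 and a log2 fold change of -0.72 (SE 0.20, adjusted p = 0.106) for Ect2. The highest line of Ect2 was Nf1/p53 line 1, and its log2 fold change without Nf1/p53 line 3 was -0.71. Anln, an actin-binding protein of the cleavage furrow, stood at 394, 388 and 541 CPM in Nf1/p53 lines 1 to 3 and 494, 411 and 443 CPM in Nf1/Cdkn2a lines 1 to 3, with a log2 fold change of 0.03 (SE 0.18, adjusted p = 0.943) that was -0.020 with upper-quartile scaling. Prc1, which bundles midzone microtubules, was at -0.23, and 0.11 without Nf1/p53 line 3.

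**Figure D4:**
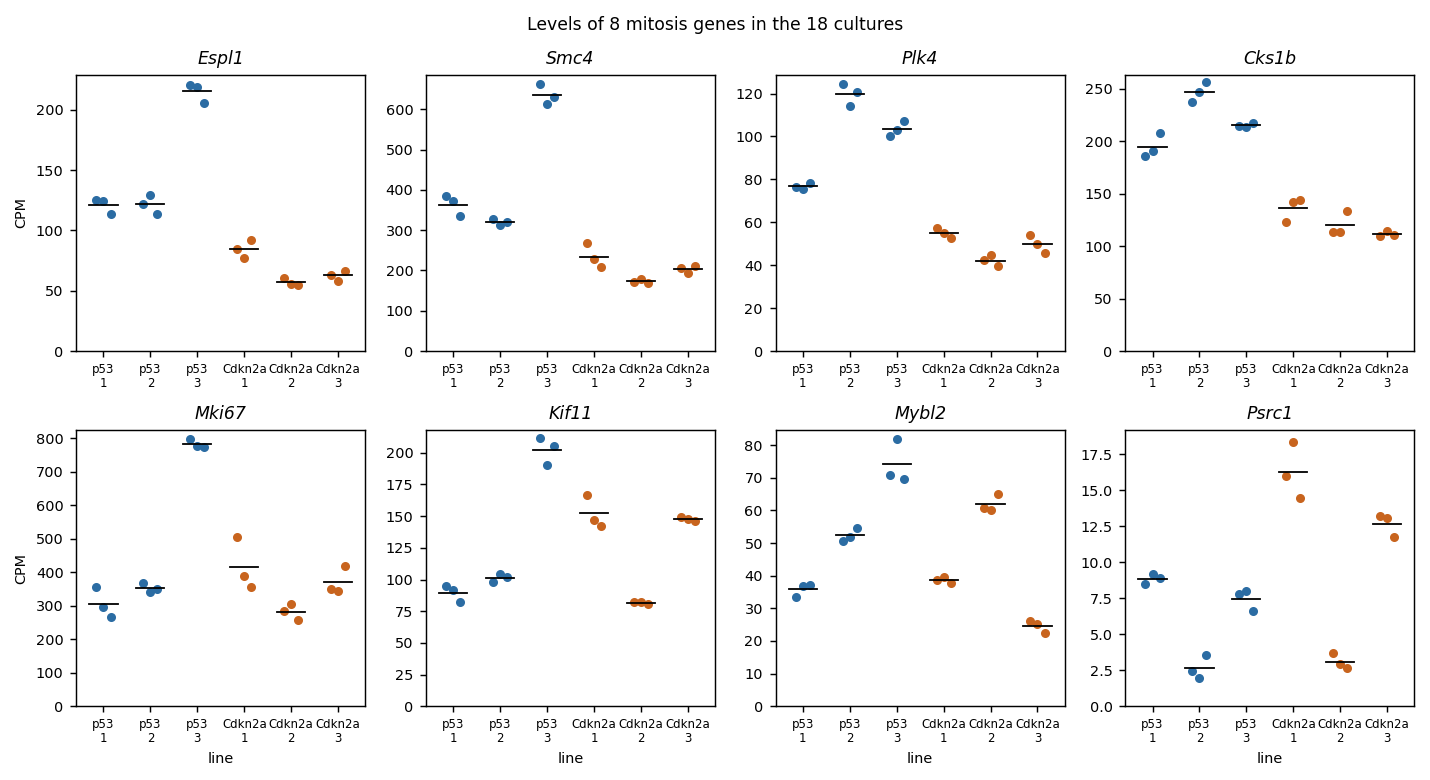
Levels in CPM of 8 mitosis genes in the 3 cultures of each line (points; bars are line means), Nf1/p53 lines in blue and Nf1/Cdkn2a lines in orange. For Espl1, Smc4, Plk4 and Cks1b no Nf1/Cdkn2a culture reached any Nf1/p53 culture, whereas in Mki67 Nf1/p53 line 3 alone stood above the rest. In Kif11 Nf1/p53 line 3 was the highest, with Nf1/Cdkn2a lines 1 and 3 between it and the other lines. In Mybl2 and Psrc1 the lines of both genotypes were interleaved.

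Pairs of related genes were compared as ratios within a line, in 5 pairs. The ratio of Cks1b to Cks2 counts was 2.78, 3.24 and 2.10 in Nf1/p53 lines 1 to 3 and 1.80, 1.82 and 1.5 in Nf1/Cdkn2a lines 1 to 3. The ratio of Smc4 to Smc2 was 2.51, 1.64 and 2.29 in the Nf1/p53 lines and 1.39, 1.36 and 1.35 in the Nf1/Cdkn2a lines. In both pairs the groups did not overlap, and the exact permutation test over lines (two-sided) gave p = 0.1, the smallest that 3 lines against 3 allow, or 0.25 after adjustment over the 5 pairs. The ratios of Ccnb1 to Ccnb2, Bub1 to Bub1b and Spc24 to Spc25 overlapped, with differences of -0.10, 0.00 and -0.01 on the log2 scale (exact permutation p = 0.7, 1 and 1).

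Levels of different genes were compared per length, as CPM per kb of exon. Cks1b was the highest of the mitosis genes in the Nf1/p53 lines, at 194 ± 23.7 CPM per kb (SD, n = 3 lines), followed by Cks2, at 100.5, 109.9 and 148 CPM per kb in lines 1 to 3, and Cdc20 at 106 ± 33.9. In the Nf1/Cdkn2a lines Cks1b was at 109 ± 11.2 CPM per kb and Cks2 at 104 ± 8.15, a gap within their spread. In the Nf1/p53 lines Psrc1 had the lowest mean, at 1.88 ± 0.968 CPM per kb (3.18 ± 2.01 in the Nf1/Cdkn2a lines). In the Nf1/Cdkn2a lines Kif18a, a kinesin that dampens chromosome movement, had the lowest mean, at 2.63 ± 0.246 CPM per kb (3.77 ± 0.587 in the Nf1/p53 lines).

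The second comparison asked how each line differed from the other 2 lines of its genotype. It was fitted with edgeR on the 18 cultures over 14690 genes, so its p-values measure the spread between cultures of a line only, and contrasts within a genotype share cultures. In Nf1/p53 line 3, 53 of the 57 genes were called higher (against 30.3% of all genes) and 0 lower (against 31.8%), with a median log2 difference of 0.65. The 4 genes not called there were Ccna2, Cks1b, Plk4 and Ect2. Cdc25b was the most raised, by 1.31 (SE 0.05), followed by Spc24 (1.29), Mki67 (1.25) and Ncapd2 (1.24). In this line the sum of the 6 skeletal muscle lineage markers was also the highest, at 416 CPM, mostly from Myod1, Cdh15 and Des. Myf5 was not the highest there, Myog was at 1.07 CPM and Pax7 at no more than 3 counts. Cdkn2a was the lowest in this line, at 42.9 CPM. The part of these markers and of Cdkn2a in the result was not tested. Nf1/p53 lines 1 and 2 share the comparison from the other side. In line 1, 2 genes were called higher (Psrc1 and Ect2, against 27.9%) and 45 lower (against 23.8%), from -0.85 for Spc24 to 0.99 for Psrc1. In line 2, 3 were called higher (Ccna2, Cks1b and Plk4, against 27%) and 38 lower (against 24.6%), from -1.61 for Psrc1 to 0.43 for Plk4.

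Among the Nf1/Cdkn2a lines, line 2 had 48 genes called lower (against 22.8% of all genes) and 1 higher (against 20%), with a median of -0.35. The gene called higher was Mybl2, by 1.00 (SE 0.07, adjusted p = 1.63e-12 in edgeR), and the lowest was Psrc1 at -2.21, followed by Kif11 at -0.87. In line 1, 42 genes were called higher (against 16.1%) and 1 lower (against 14%), with a median of 0.25. The gene called lower was Cdk1, at -0.31, and the highest was Psrc1 at 1.37. In line 3, 19 genes were called higher (against 25.2%) and 3 lower (against 21.2%), with a median of 0.07. Those 3 were Cks1b (-0.20), Foxm1 (-0.28) and Mybl2 (-0.99), while Psrc1 (0.84) and Cdk1 (0.70) were highest. For the mitosis genes, a median of 96.7% of the variance over cultures within the Nf1/p53 genotype lay between lines (all genes 86.0%), and 81.3% within the Nf1/Cdkn2a genotype (all genes 57.8%). All genes were not matched to the mitosis genes by level, so this gap cannot be read as particular to them.

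**Figure D5:**
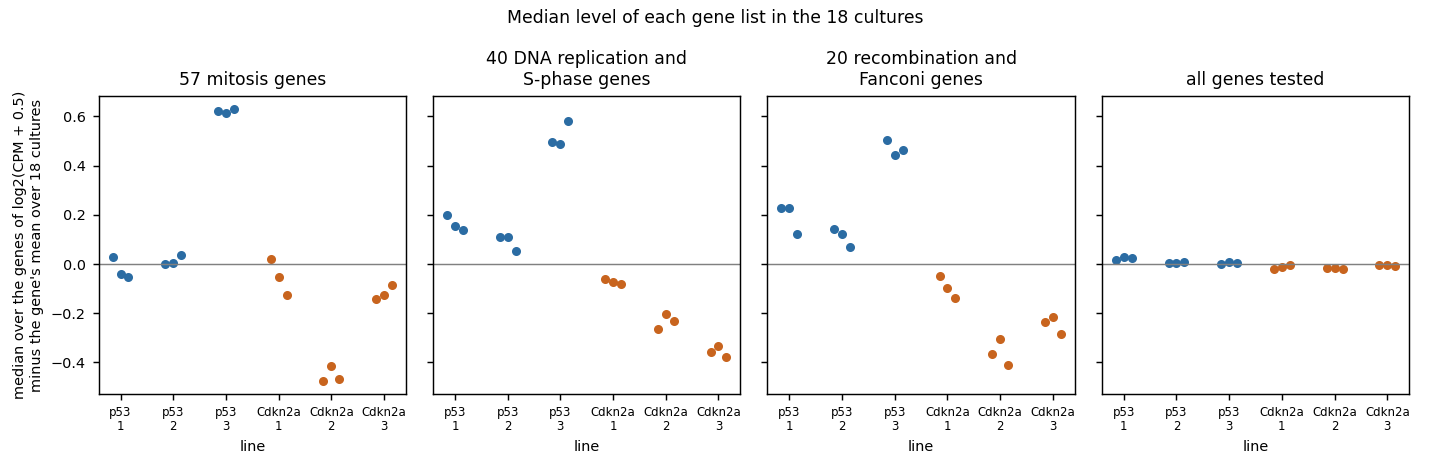
Median over the genes of a list of log2(CPM + 0.5) minus the gene's mean over the 18 cultures, 1 point per culture, for the mitosis genes, 2 other proliferation lists and all genes tested. The mitosis genes of Nf1/p53 line 3 lay at 0.61 to 0.63 and those of Nf1/Cdkn2a line 2 at -0.47 to -0.41, while the cultures of the other lines ran from -0.14 to 0.04.

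Most of the 57 genes shared a pattern over the 6 lines. The correlation of a gene's 6 log2 levels with the median pattern of the other mitosis genes had a median of 0.91 and was over 0.8 in 43 genes, against 7.55% of all genes over 0.8 with that pattern. Without Nf1/p53 line 3 the median was 0.76 and 21 genes were over 0.8, against 6.87% of all genes. This is a description over 6 lines that share 1 scaling. The genes most like the pattern were Kif20a (0.98), Ndc80 (0.98), Hmmr (0.98) and Nusap1 (0.97), and the least like were Psrc1 (0.23), Mybl2 (0.31) and Cdk1 (0.54). The 34 genes with a CHR match in a promoter window had a median log2 fold change of -0.41 and a median difference of Nf1/p53 line 3 of 0.67. The 14 genes with a window but no match had -0.46 and 0.49.

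Of 100 other genes of mitosis, grouped by complex, 76 were lower and 24 higher, with a median of -0.24, where 51.8% of all genes were lower. The test called 2 of them, both lower, a share near the 1.8% of all genes called. Pmf1, a subunit of the MIS12 kinetochore complex, stood at 83.6, 101 and 125 CPM in Nf1/p53 lines 1 to 3 and 48.4, 41.1 and 41.6 CPM in Nf1/Cdkn2a lines 1 to 3, with a log2 fold change of -1.24 (SE 0.18, adjusted p = 0.0388). Sgo1, shugoshin, which protects cohesin at centromeres, stood at 46.8, 49.6 and 60.1 CPM in Nf1/p53 lines 1 to 3 and 28.8, 24.1 and 27.3 CPM in Nf1/Cdkn2a lines 1 to 3, with a log2 fold change of -0.96 (SE 0.16, adjusted p = 0.0465). Neither overlapped between genotypes, and without Nf1/p53 line 3 their log2 fold changes were -1.07 and -0.85. Zwint, a kinetochore protein, had the highest log2 fold change of these genes, at 0.59 (adjusted p = 0.149 in edgeR). Group medians ran from -0.03 for 15 subunits and regulators of the anaphase-promoting complex to -0.52 for 5 genes of CDK1 phosphorylation and the Greatwall kinase. The 8 DREAM and MuvB genes had a median of -0.24, and 0 of them passed an unadjusted p under 0.05.

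Related lists were set beside the mitosis genes. Of 40 DNA replication and S-phase genes 37 were lower, with a median of -0.45, and of 20 homologous recombination and Fanconi genes 18 were lower, with -0.51, where 51.8% of all genes were lower. Both had 0 calls, where 1.8% of all genes were called, and 16 and 8 of their genes were lower at an unadjusted p under 0.05, where 12.5% of all genes were. Nf1/p53 line 3 was the highest line in both lists too, with a median deviation from the mean of the 6 lines of 0.55 and 0.49 on the log2 scale, against 0.60 for the mitosis genes. Without Nf1/p53 line 3 their medians were -0.27 and -0.33, against -0.17 for the mitosis genes. Without Nf1/p53 line 3 and Nf1/Cdkn2a line 2 they were -0.30 and -0.26, against -0.05. Those 2 lines were chosen after seeing the data, as the highest and lowest of the mitosis genes. The lowest line of the replication list was Nf1/Cdkn2a line 3, at a median deviation of -0.39 against -0.26 in line 2. Leaving those 2 lines out thus does not treat the mitosis genes and the related lists alike. In each of these lists every Nf1/p53 culture had a median above every Nf1/Cdkn2a culture, whereas the cultures of mitosis genes overlapped, with Nf1/p53 line 1 at -0.05 to 0.03 and Nf1/Cdkn2a line 1 at -0.13 to 0.02. Whether the lists differ from each other was not tested.

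Some counts are uncertain because reads could be shared. Besides Ccna2 and Kif20a, the exons of Ube2c (22.8%), Kif4 (15.1%), Ncapg (13.4%), Cdc25c (12.7%) and Prc1 (11.1%) overlap a gene on the opposite strand, and whether counting used the strand is not given in the sources used here. Near-identical copies with counts of their own exist for Ndc80 (2700099C18Rik, 2941 counts over all libraries against 26903), Plk1 (Plk-ps1, 430 against 53128), Cks2 (Gm15452 and Gm12891, 108 and 3 against 32185), Kif11 (Gm15697, 40 against 53341), Ccnb1 (Gm12856, 36 against 79946) and Cdc20 (Gm7856, 5 against 73789).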

How the data were processed

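The values the authors deposited are counts, whole numbers of reads for each gene in 18 libraries, without normalization. Per the submitters' processing notes, CASAVA, STAR 2.5 and DESeq2 1.14.1 were used with GRCm38 (mm10), and library preparation and sequencing were done by a company. The counting tool, annotation and strand setting are not given in the sources used here. Unnormalized counts carry library size and gene length, so levels were scaled to CPM with TMM factors and compared between genes only per kb of exon.

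Groups and line numbers came from the sample labels. Counts were summed over the 3 cultures of each line, genes were kept with filterByExpr (minimum count 10, minimum total 15), and edgeR's quasi-likelihood test (edgeR 4.0.16, R 4.3.3) compared the genotypes, with Benjamini-Hochberg adjustment over all genes at 0.05. The lines of a genotype were compared on the 18 cultures with the same test. Alternatives used limma 3.58.1 and DESeq2 1.42.0, other scalings and filters, replicate blocks, and left-out lines or cultures. The steps were tested on simulated data. Positions are from GENCODE M21, promoters from RefSeq, and near-identical copies from blastn 2.17.0 (at least 90% identity over at least 20% of the transcript).

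The genes and lists were chosen with earlier results of these data known. Named in full are the lowest and highest gene of each role group, and genes called or with an unadjusted p under 0.01. The genes of left-out-line classes, likeness and the line contrasts beyond their extremes were chosen after their values were seen.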

Additional observations from a re-analysis of the deposited data

Results flagged for a closer look

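In 114 sets of 9 cultures (57 genes in each genotype), the highest or lowest culture stood apart from the others by more than Dixon's 95% critical value in 4 sets, where chance flags about 1 set in 20 of independent samples. The 9 cultures are 3 from each of 3 lines, so that rate does not apply to them as it stands. All 4 were the same culture, Nf1/Cdkn2a line 1 culture 1, as the highest of its genotype: Birc5 at 126 CPM (next culture 107), Cenpe at 158 CPM (next 116), Kif18a at 34.9 CPM (next 27.2) and Anln at 588 CPM (next 458).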

How the results depend on the processing

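No mitosis gene was called without a filter, with at least 10 counts in every line, with DESeq2's size factors or without any single line, and 1 was with upper-quartile normalization and 3 with raw totals. Calls rose to 9 with DESeq2 on the 6 lines, 18 with limma-voom (17 with the culture number as a replicate block), 36 with edgeR and 37 with DESeq2 on 18 cultures. Genes with an unadjusted p under 0.05 and a lower level numbered 16 in the report, 28 with limma-voom, 29 with the culture block, 39 with edgeR and with DESeq2 on 18 cultures, 25 with raw totals, 7 to 19 without 1 line and 6 without both Nf1/p53 line 3 and Nf1/Cdkn2a line 2. Without those 2 lines 34 genes were lower and the median was -0.046. Genes without overlap numbered 18 in the report, 9 on the 18 cultures (10 with DESeq2's scaling), 30 with raw totals and 17 to 28 without 1 line. With a line left out, groups without overlap are easier to reach for any gene. Outside the report's own setting, shares of all genes are not given for the unadjusted p and overlap counts. Nor are they given for the calls with upper-quartile normalization or raw totals. Such counts cannot be read as particular to the mitosis genes. Raw totals moved the median of all genes from -0.02 to -0.16. The line number as a replicate block gave 0 calls, 15 genes with an unadjusted p under 0.05, 52 lower genes and a median of -0.40. Same-numbered lines had correlations of -0.13 to -0.09, which gave no sign of pairing by line number. For same-numbered cultures only the lowest correlation over pairs of lines was taken, down to -0.13. A lowest value cannot show whether the culture numbers pair the samples.

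The sign of the log2 fold change turned in some genes. Incenp was 0.024 with limma-voom, 0.026 with the culture block, 0.038 with the line block, 0.0041 with DESeq2 on the 6 lines or its size factors, and 0.0080 without a filter. Kif11 was 0.0011 with the line block, and Anln was -0.020 with upper-quartile normalization and -0.11 with raw totals. Leaving out single lines turned 15 of the 57 genes, 12 of them without Nf1/p53 line 3. These included Cdk1 (-0.28 to 0.16), Foxm1 (-0.55 to 0.057), Ube2c (-0.23 to 0.0096), Incenp (-0.18 to 0.33), Kif11 (-0.25 to 0.42), Cenpf (-0.31 to 0.025) and Anln (-0.047 to 0.21). Without Nf1/p53 line 3 the others were Mki67 (from -0.42 to 0.13), Aurkb (-0.33 to 0.0098), Kif23 (-0.23 to 0.098), Prc1 (-0.23 to 0.11), Ccnb2 (-0.20 to 0.077), Birc5 (-0.19 to 0.11) and Kif20b (-0.11 to 0.020), and Gtse1 fell from 0.0071 to at lowest -0.14 without Nf1/Cdkn2a line 1. Without Nf1/p53 line 3 and Nf1/Cdkn2a line 2, Cdk1 was 0.29, Foxm1 0.062, Bub3 0.0072, Ube2c 0.032, Incenp 0.47, Cenpf 0.12, Top2a 0.053 and Kif11 0.66. In the line contrasts, raw totals gave a median of -0.37 for Nf1/p53 line 2 and 5 genes called lower in Nf1/Cdkn2a line 3, and the median of Nf1/Cdkn2a line 1 ran from 0.20 to 0.28 without 1 of its cultures. The cause of these changes was not tested. The lowest level of a mitosis gene in a line was 2.64 CPM (Psrc1), where counting error is largest.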
